A study of Mus musculus with 12 samples.

Results

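Nicotinamide nucleotide transhydrogenase (Nnt) and 9 further genes of mitochondrial NADPH supply and peroxide defence were measured in adrenal glands of mice in which Abcg1, a cholesterol exporter, was conditionally inactivated. The 10 genes were chosen by name, for their place in this pathway, with earlier results of these data known. All 10 are among the 24421 genes measured. The mean normalized count of Nnt was 6064 in adrenals of these mice (Abcg1 cKO), against 3368 in control and Abca1 cKO adrenals taken as one combined group, a ratio of 1.80. None of the other 9 genes had a ratio past 1.2-fold in either direction. Their ratios lay between 0.896 for Idh2 and 1.14 for Sod2.

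The transhydrogenase sits in the inner mitochondrial membrane, where it uses the proton gradient to make NADPH from NADH and NADP+. Mitochondrial NADPH keeps glutathione and thioredoxin reduced, and these in turn feed the enzymes that remove hydrogen peroxide. In the adrenal cortex the same NADPH also drives the mitochondrial steroid hydroxylases, which are a source of superoxide. NNT deficiency is a known cause of familial glucocorticoid deficiency in people, and the C57BL/6J mouse strain carries a deletion of internal Nnt exons, whereas the gene is intact in sv129 strains.

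Each group held 4 libraries, made from whole adrenals of 2-month-old female mice on a mixed sv129-C57BL/6 background. Abcg1 cKO mice carried a Cre recombinase expressed from the aldosterone synthase gene (Cyp11b2) and 2 conditional Abcg1 alleles. Abca1 cKO mice carried the same Cre and 2 conditional alleles of Abca1, a related cholesterol exporter. The series design describes the controls as carrying the Cre alone, whereas the methods also allow littermates with 1 conditional allele and do not say whether those carried the Cre, so a Cre difference between the groups was not tested. The Cre is expressed from the aldosterone synthase gene, and the paper reported recombination across the whole cortex. The RNA came from the whole gland, medulla included.

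The deposited values used here were the authors' mean of the 4 Abcg1 cKO libraries and their mean of the 8 control and Abca1 cKO libraries taken as one group. Values of single libraries were not analysed here, since their names could not be matched to sample labels. The authors' own standard errors and p-values from DESeq2 exist in the deposited values but were not used here. The ratios below are therefore given with no replicate check, no standard deviation and no p-value, and they describe these libraries only. The allele each animal carried at Nnt was not analysed either. Abcg1 itself, on chromosome 17 from 31057694 to 31117984, stood at 249.7 mean normalized counts in Abcg1 cKO adrenals, against 305 in the combined group, and its log2 ratio was -0.29. The Cre recombines an exon of Abcg1, so reads from the rest of the gene can still be counted. The paper reported reduced Abcg1 transcripts in whole adrenals by quantitative PCR, a measure not compared here. Abca1, on chromosome 4 from 53030789 to 53159988, had 10057 in Abcg1 cKO adrenals, against 7791 in the combined group, of which Abca1 cKO libraries are a part.

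The Nnt gene spans 119335527 to 119409257 on chromosome 13 of the mouse genome build GRCm38 (mm10), the build of all positions given here. The reference genome that the authors mapped to is that of C57BL/6J, so exons deleted in that strain could not collect reads from any animal. In the GENCODE annotation of this build the principal transcript, Nnt-202, has 17 exons, 3464 bases and an open reading frame of 835 codons. The symbol Nnt is held there by 2 gene identifiers with 6 transcripts in all, and the annotation the authors counted with is named in no source used here. The start of the Nnt-202 reading frame, at chr13:119404643-119404702 in exon 2 on the minus strand of GRCm38, is shown to identify the transcript taken for its length, with the start codon in capitals.
Nnt-202 coding start: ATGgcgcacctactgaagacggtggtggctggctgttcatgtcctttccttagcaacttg

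Among the 14305 genes with a mean of at least 10 normalized counts over the 12 libraries, 10.4% were at least 1.2-fold higher in Abcg1 cKO adrenals and 12.2% were at least 1.2-fold lower. All 10 genes of the pathway passed this filter. Of these, 1 (Nnt) was past the fold on the higher side, 0 were past it on the lower side and 9 were within it. The 1 gene higher is thus close to the share found over all genes. The log2 ratio of Nnt, computed with a pseudocount of 1, was 0.85, and 97.4% of the genes kept had a smaller absolute log2 ratio. Across genes with a mean of at least 1000, a minimum chosen after the data had been seen, this was 99.3% of 4183 genes. Since Nnt was chosen with earlier results of these data known, these shares only describe its place.

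**Figure D1:**
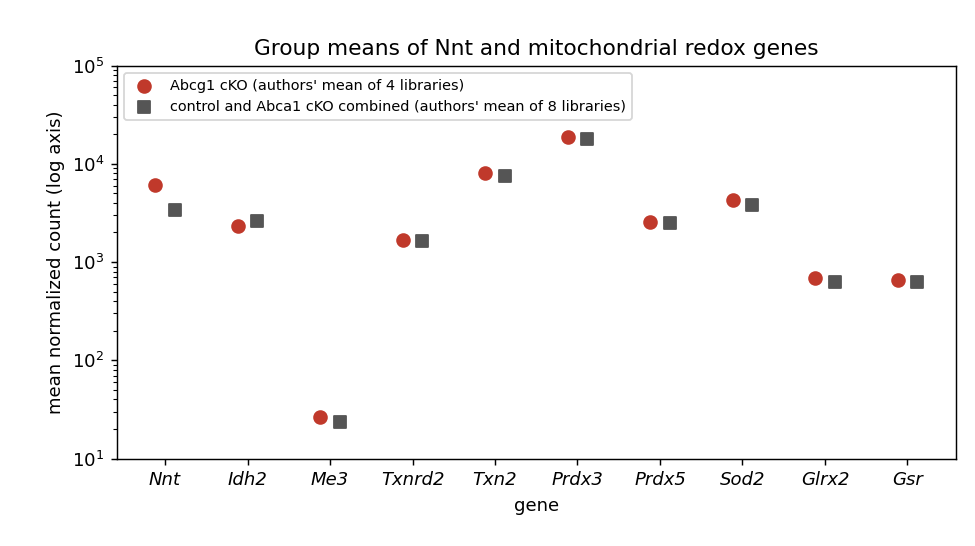
Mean normalized count (log axis) of Nnt and the 9 other mitochondrial redox genes; each circle is the authors' mean of the 4 Abcg1 cKO libraries and each square their mean of the 8 control and Abca1 cKO libraries combined, with no error bars since no single-library values were used. Nnt stood at 6064 in Abcg1 cKO, against 3368 in the combined group, while the circle and square of the other genes lie close together.

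The genes that supply NADPH in the mitochondrial matrix did not share the ratio of Nnt. Idh2, the NADP-dependent isocitrate dehydrogenase of mitochondria, lies on chromosome 7 from 80094845 to 80118608. It had 2346 normalized counts in Abcg1 cKO adrenals, against 2617 in the combined group, a log2 ratio of -0.16 and the only negative one of the 10. Me3, a mitochondrial malic enzyme on the same chromosome from 89632284 to 89854359, was scarce. Its mean was 26.3 in Abcg1 cKO adrenals, against 23.8 in the combined group, a log2 ratio of 0.14.

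The 3 enzymes were ordered by normalized count per kb of principal transcript, so that levels of genes of unequal length could be compared. Where a gene has several principal transcripts the longest was taken, and other lengths were not tried. Nnt had 1750.5 counts per kb in Abcg1 cKO adrenals, against 972 in the combined group. Idh2 had 1345 per kb in Abcg1 cKO adrenals, against 1500 in the combined group. The level of Nnt was thus 1.30 times that of Idh2 in Abcg1 cKO adrenals and 0.648 times that of Idh2 in the combined group, so the order of the pair differed between the groups, with no spread known for either. Me3 was last in the order, with 5.86 per kb in Abcg1 cKO adrenals, against 5.30 in the combined group.

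The thioredoxin and peroxiredoxin genes, which reduce hydrogen peroxide with electrons from NADPH, had ratios close to 1. Prdx3, the peroxiredoxin confined to mitochondria, lies on chromosome 19 from 60864066 to 60874538. It had 18631 normalized counts in Abcg1 cKO adrenals, against 17925 in the combined group, a log2 ratio of 0.06. Per kb it was the most abundant of the 10 genes in both groups, with 12606 in Abcg1 cKO adrenals, against 12128 in the combined group.

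Txn2, the mitochondrial thioredoxin that reduces Prdx3, lies on chromosome 15 from 77915051 to 77928994. Its mean normalized count was 8029.6 in Abcg1 cKO adrenals, against 7441 in the combined group, a log2 ratio of 0.11. Txnrd2, the reductase that recharges Txn2 with NADPH, lies on chromosome 16 from 18426417 to 18479073. Its means were 1697 in Abcg1 cKO adrenals, against 1651 in the combined group, a log2 ratio of 0.04. Prdx5, a peroxiredoxin found in mitochondria, peroxisomes and cytosol, lies on chromosome 19 from 6906697 to 6910106. It had 2579.5 in Abcg1 cKO adrenals, against 2516 in the combined group, with a log2 ratio of 0.04 as well. Of the genes kept, 16.5% had a smaller absolute log2 ratio than Prdx5, the lowest of these 4, and 45.6% a smaller one than Txn2, the highest.

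Sod2, the manganese superoxide dismutase that turns superoxide into hydrogen peroxide in the matrix, had the highest ratio after Nnt. Its mean normalized count was 4303 in Abcg1 cKO adrenals, against 3789 in the combined group, a log2 ratio of 0.18, and 65.2% of the genes kept had a smaller absolute log2 ratio. Sod2 lies on chromosome 17 from 13007839 to 13018119, which is 18.0 Mb from Abcg1.

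Of the 2 glutathione-linked genes, Glrx2 encodes a mitochondrial glutaredoxin and lies on chromosome 1 from 143739224 to 143749678. It had 692 normalized counts in Abcg1 cKO adrenals, against 629 in the combined group, a log2 ratio of 0.14. Gsr encodes glutathione reductase, which uses NADPH in both cytosol and mitochondria, and lies on chromosome 8 from 33653238 to 33698162. Its means were 663 in Abcg1 cKO adrenals, against 621 in the combined group, a log2 ratio of 0.09.

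**Figure D2:**
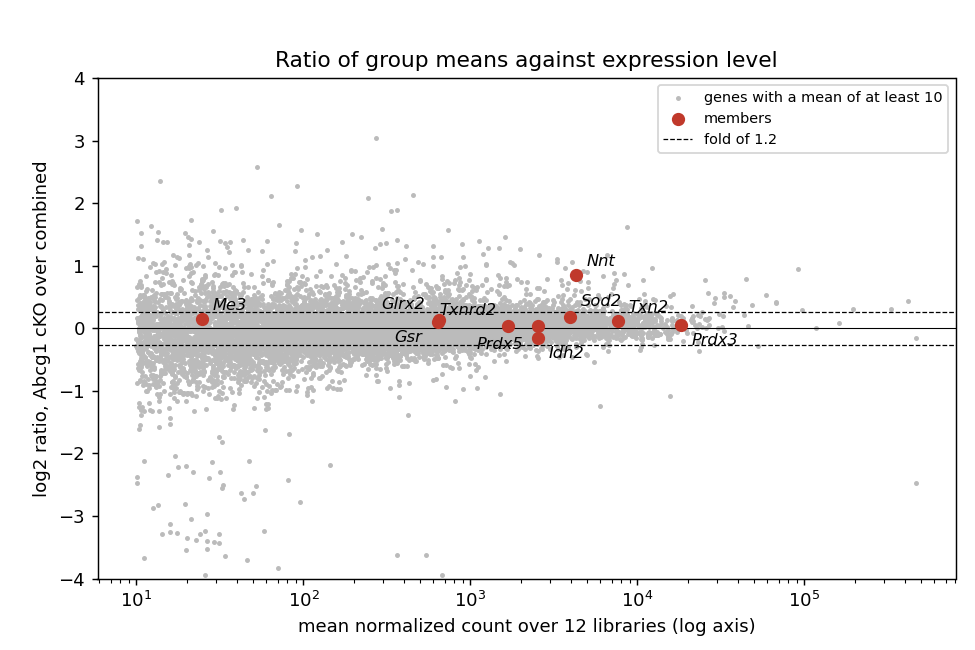
Log2 ratio of group means, Abcg1 cKO over the combined group, against the mean normalized count over the 12 libraries (log axis); grey points are the 14305 genes with a mean of at least 10, red points the 10 named genes, and dashed lines mark 1.2-fold. Nnt lies at 0.85 and the other 9 between -0.16 and 0.18; 4 genes beyond the vertical range are not drawn.

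The log2 ratio was above 0 for 9 of the 10 genes, or for 4 of 10 when set against genes of mitochondrial content, with a median of 0.10, or 0.09 without Nnt. Over all genes kept the median was 0.0013, and 50.3% were above 0. Abundant genes as a class leaned the same way: among the 4183 with a mean of at least 1000, 64.9% were above 0 and the median was 0.05. Of the 7 pathway genes at that level, 6 were above 0, with a median of 0.06. No log2 ratio, that of Nnt included, could be tested against 0 with the values used here.

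Genes that report mitochondrial content, such as citrate synthase (Cs) and the outer membrane channel Vdac1, had a median log2 ratio of 0.11, with 1 of 10 past 1.2-fold higher and 0 lower. That gene was Hspd1, a mitochondrial chaperone, with 35780.2 normalized counts in Abcg1 cKO adrenals, against 25600.4 in the combined group, a log2 ratio of 0.48. Sdha, a subunit of succinate dehydrogenase, followed with 0.24, whereas the import receptor Tomm20 stood at -0.0008 and the mitochondrial DNA packaging factor Tfam at 0.01. Set against this median, 4 of the 10 pathway genes lay above and 6 below. Nnt stood at 0.73, Idh2 at -0.27, which is past 1.2-fold on this scale, and the other 8 lay between -0.08 and 0.07.

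The wider NADPH pathway was read from lists of further genes. Of 10 others that make or handle NADPH or its precursors in mitochondria, 1 was past the fold higher, 0 lower and 9 neither, with a median log2 ratio of 0.04. The one was Aldh1l2, the mitochondrial 10-formyltetrahydrofolate dehydrogenase, at a low level of 38.4 in Abcg1 cKO adrenals, against 28.7 in the combined group. The folate enzyme Mthfd2l was lowest at -0.24. Of 8 genes of NADPH supply in the cytosol and endoplasmic reticulum, 1 was higher, 0 lower and 7 neither, with a median of 0.09. Again it was a formyltetrahydrofolate dehydrogenase, the cytosolic Aldh1l1, with 7214 normalized counts in Abcg1 cKO adrenals, against 5172 in the combined group, a log2 ratio of 0.48. The NAD kinase Nadk had a log2 ratio of 0.22, the pentose phosphate enzyme G6pdx 0.14, and Idh1, the cytosolic counterpart of Idh2, -0.14.

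Outside the mitochondrial thioredoxin chain, 1 of 10 thioredoxin and peroxiredoxin genes was past the fold higher, 0 lower and 9 neither, with a median of 0.08. This gene, Srxn1, encodes sulfiredoxin, which repairs over-oxidised peroxiredoxins, Prdx3 among them. Its mean normalized count was 10373 in Abcg1 cKO adrenals, against 4613 in the combined group, a ratio of 2.25 and a log2 ratio of 1.17, larger than that of Nnt. Prdx2, a cytosolic peroxiredoxin, had 0.24, while the thioredoxin reductase Txnrd3 had -0.20 and the endoplasmic reticulum peroxiredoxin Prdx4 had -0.18. The ratio of the repair enzyme was thus above that of each of the 6 peroxiredoxin genes.

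Srxn1 is also a target of the oxidative stress factor NRF2, and the other NRF2 genes did not share the size of its ratio. Of 10 genes, 1 was higher, 2 lower and 7 neither, and 6 were above 0, with a median log2 ratio of 0.04. Gclc, the catalytic subunit of glutathione synthesis, stood at 0.19, the cytosolic thioredoxin reductase Txnrd1 at 0.17, and the gene of NRF2 itself, Nfe2l2, at -0.0035. The heme oxygenase Hmox1 had 793 normalized counts in Abcg1 cKO adrenals, against 985 in the combined group, a log2 ratio of -0.31. The cystine transporter Slc7a11 was scarce, with 17.6 in Abcg1 cKO adrenals, against 23.1 in the combined group, a log2 ratio of -0.37.

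Glutathione synthesis, transport, glutaredoxins and peroxidases gave 0 higher, 1 lower (Slc7a11) and 10 neither of 11 genes, with a median log2 ratio of -0.02. Gpx4, which reduces lipid peroxides in mitochondria and elsewhere, had 0.10, and the glutaredoxin Glrx3 had -0.16. Of 6 other genes that make or remove superoxide and hydrogen peroxide, 1 was higher, 0 lower and 5 neither, with a median of 0.06. It was Nox4, an NADPH oxidase that releases hydrogen peroxide, with 136 normalized counts in Abcg1 cKO adrenals, against 69.4 in the combined group, a ratio of 1.95. Ccs, which loads copper into Sod1, had 0.14, Sod1 itself, the cytosolic dismutase, 0.01, and Cyba, the membrane partner of NADPH oxidases, -0.10. For 5 genes of mitochondrial proteolysis and methionine sulfoxide repair, 0 were higher, 0 lower and 5 neither, with a median of -0.04 and a range of -0.19 (Msrb3) to 0.24 (Lonp1).

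**Figure D3:**
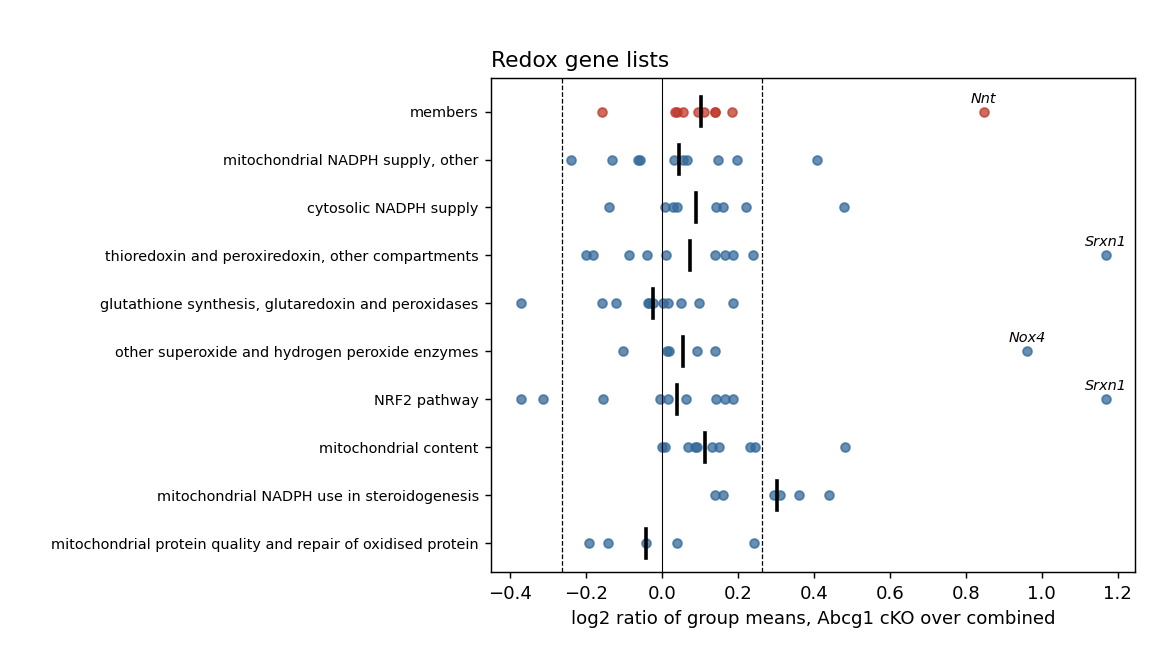
Log2 ratio (Abcg1 cKO over the combined group) of mean normalized counts for the 10 mitochondrial redox genes (red, labelled members) and for 9 lists of related genes (blue), with a point per gene, a thick bar at each median and dashed lines at 1.2-fold. Nnt at 0.85, Nox4 at 0.96 and Srxn1 at 1.17, which is in 2 lists, stand apart from the other points, and the steroidogenesis list has the highest median of the 9 lists at 0.30.

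The steroidogenic genes whose products use mitochondrial NADPH, or deliver cholesterol to the enzymes that do, gave the highest median of the 9 pathway lists, 0.30. Of these 6 genes 4 were higher, 0 lower and 2 neither. Among all genes with a mean of at least 1000, the level of each of these 6, 7.51% were higher and 1.96% lower. Star, which carries cholesterol to the inner membrane, had 507891 normalized counts in Abcg1 cKO adrenals, against 374521 in the combined group, a log2 ratio of 0.44. Ferredoxin (Fdx1), which passes electrons from NADPH to the mitochondrial P450 enzymes, had 0.36, and its reductase Fdxr had 0.16. Cyp11a1, the side-chain cleavage enzyme, had 0.30 and Cyp11b1, the 11-beta-hydroxylase, 0.31, while Cyp11b2 had 0.14. The log2 ratio of Nnt, 0.85, was above that of each of these 6 genes. The paper reported that transcripts for enzymes of steroidogenic conversion were not affected by Abcg1 inactivation. The ratios here carry no test, so they were not weighed against that statement.

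Markers of other cell types also differed between the group means. All 6 adipocyte markers were past the fold higher, with summed normalized counts of 41857 in Abcg1 cKO adrenals, against 18889.6 in the combined group, and so were all 6 medulla markers, with sums of 175735 in Abcg1 cKO adrenals, against 129182 in the combined group. The median log2 ratio was 1.17 for the adipocyte markers and 0.40 for the medulla markers, both above that of every pathway list. Cortical markers gave 4 of 7 higher and 0 lower, with a median of 0.30, and 3 of these 4 (Star, Cyp11a1 and Cyp11b1) are also in the steroidogenesis list. All 4 lymphocyte markers kept by the filter were lower, with sums over the 5 measured of 36.4 in Abcg1 cKO adrenals, against 71.7 in the combined group, and all 3 liver markers were lower, with sums of 83.2 in Abcg1 cKO adrenals, against 891 in the combined group. Of the macrophage markers 1 of 5 was higher and 1 lower, and none of the 4 endothelial markers was past the fold. The kidney markers summed to 1.56 in Abcg1 cKO adrenals, against 5.17 in the combined group. Of 4 red blood cell markers, 3 were listed at 0 in both groups and so give no measure of blood in the glands. The other, Alas2, had 224 in Abcg1 cKO adrenals, against 258 in the combined group. The part of these differences in the ratios of Nnt, Srxn1 and Nox4 was not tested, and in bulk RNA fewer cells of a type cannot be told apart from less RNA per cell.

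Nnt was set beside the genes around it on chromosome 13, in a window of 1 Mb on each side that was chosen after the data had been seen. Of 11 neighbours kept by the filter, 3 were past the fold higher, 4 lower and 4 neither, against 22.6% of all genes past the fold in either direction. The nearest, Paip1, a translation factor gene 19.1 kb away, had a log2 ratio of -0.09. The next, 4833420G17Rik, 52.8 kb away, had 570.3 normalized counts in Abcg1 cKO adrenals, against 882 in the combined group, a log2 ratio of -0.63. Hmgcs1, the sterol-regulated HMG-CoA synthase 281 kb away, had 6890.4 in Abcg1 cKO adrenals, against 3671 in the combined group, a log2 ratio of 0.91. Of the neighbours 5 had a mean under 50 counts, and of the other 6 these last 2 were past the fold. Among all genes with a mean of at least 50, 9.01% were past it higher and 8.42% lower. The 2 nearest genes kept had negative log2 ratios. Hmgcs1 and Fgf10, the latter under 50 counts, had positive ones of 0.91 and 0.96. The paper reported increased transcripts for cholesterol biosynthesis, the pathway of Hmgcs1, in Abcg1 cKO adrenals. The part of that increase in the ratio of Hmgcs1 was not tested. Whether the alleles of this region differed in frequency between the groups was not tested either.

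**Figure D4:**
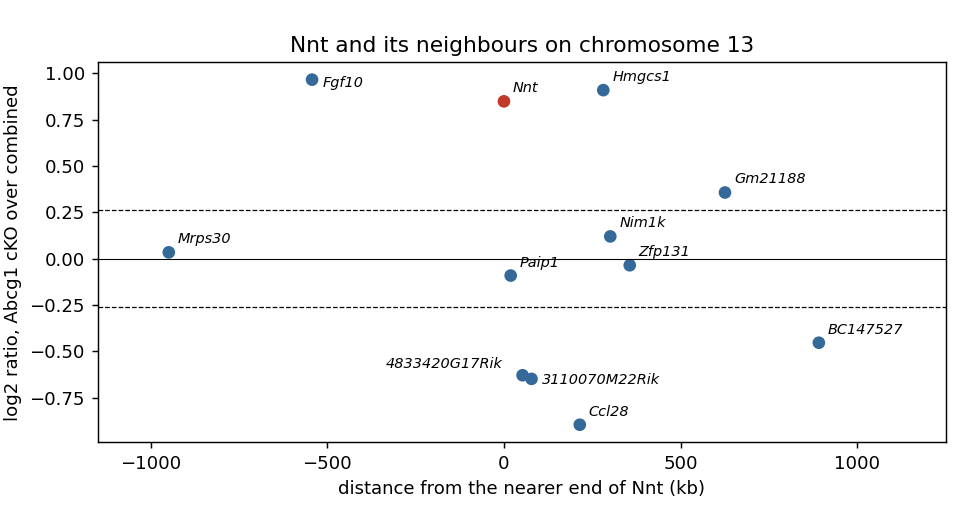
Log2 ratio of group means, Abcg1 cKO over the combined group, for Nnt (red) and the 11 genes kept by the filter within 1 Mb on chromosome 13 (blue), against distance from the nearer end of Nnt in kb; dashed lines mark 1.2-fold. Hmgcs1 (0.91) and Fgf10 (0.96, from a mean under 50 counts) lie as high as Nnt (0.85), while Paip1, the nearest gene, lies at -0.09.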

How the data were processed

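PolyA RNA from whole adrenals was sequenced in 12 libraries with a stranded kit on NovaSeq and NextSeq instruments. No source used here says which library was run on which instrument, and platform was not tested. From the methods and submitters' processing notes, the authors used bcl2fastq 2.20.0.422, cutadapt 4.0, FastQC 0.11.9, BBTools, STAR 2.7.10a on mm10, HTSeq 0.13.5 for uniquely mapped reads and DESeq2 1.38.3.

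The deposited signal values used are the authors' mean normalized counts (counts divided by size factors) of Abcg1 cKO and of control and Abca1 cKO combined. Their fold changes, standard errors and p-values from DESeq2 were not used. Another 12 columns hold single libraries under names that match no label and were not used, so the planned limma test was not run, and depth per library is unknown. Replicates are labelled biological.

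Log2 ratios had a pseudocount of 1, a minimum mean of 10 and a fold of 1.2 (Python 3.11.15, pandas 2.3.3, numpy 2.4.6, matplotlib 3.10.9). A run on simulated data without noise only checked that the code returns the ratios put in. Named were all 10 genes, Abcg1, Abca1 and up to 2 genes with the highest and lowest ratios per list, with a few more chosen after their values were seen. Positions are from RefSeq and transcripts and sequence from GENCODE, both GRCm38. Members and lists were chosen with earlier results of these data known. Alternatives were other pseudocounts, filters, folds and centrings.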

Additional observations from a re-analysis of the deposited data

How the results depend on the processing

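Of 117 values recomputed under alternatives, 96 stayed close (within 0.1 on the log2 scale, or a factor of 1.5 for counts) and 21 moved. Part of this tally was fixed by the settings. Centring on all genes shifts every log2 ratio by 0.0013, and centring on mitochondrial content shifts each of the 10 genes by 0.11. Nnt, the 1 of the 10 genes past 1.2-fold, stayed above 0 in each of these alternatives. At its level the pseudocounts and filters could hardly change its ratio. That ratio, 1.80, is past folds of 1.1, 1.2 and 1.5 by arithmetic. None of these alternatives measures the spread between animals. At a fold of 1.1, 4 of the 10 genes were higher and 1 lower. Over all 14305 genes kept, 3148 (22%) were higher and 3406 (23.8%) lower at that fold. At a fold of 1.5 the counts over the same genes were 370 higher (2.59%) and 467 lower (3.26%). With no filter beyond a mean above 0, 2629 of 19243 genes were higher and 3587 lower. With a mean of at least 50, 1107 of 12284 genes were higher and 1034 lower. There higher genes outnumbered lower ones, unlike the 1493 higher and 1745 lower at a mean of at least 10. With a mean of at least 1000, a minimum added after the data had been seen, 314 of 4183 genes were higher and 82 lower. Relative to the mitochondrial content median the log2 ratio of Nnt was 0.73, that of Idh2 was -0.27, past 1.2-fold, and 5 genes within the fold (Txnrd2, Txn2, Prdx3, Prdx5 and Gsr) turned from above to below 0.

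No paired analysis was possible because single-library values could not be matched to labels. For the same reason the replicate block, the leave-one-out fits, Abcg1 cKO against control alone and the count model were not run, so whether 1 library carries the ratio of Nnt was not tested, and no error was computed for any ratio.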
